A study of Junco hyemalis with 13 samples.

Results

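The transcripts of 9 genes of the cilium and of C7H21orf58 were examined in the hypothalamus of male dark-eyed juncos (Junco hyemalis). The genes are 10 of 15363 annotated elements, of which 11454 had at least 1 count. They were chosen by symbol from the name table of the study, which was available in part: its first 175 rows are ordered by the p of the population comparison and the other rows by identifier. C7H21orf58 and RSPH4A stand among the rows ordered by p, so they were chosen for a difference seen in these same birds, and that difference is described here with no test. RSPH1, DNAJB13, PIH1D3, DNALI1, RIBC2, TEKT4, CFAP36 and TPPP3 stand among the rows ordered by identifier and are named whatever their p.

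The compared groups were 7 residents (J. h. carolinensis), which breed where they were caught, and 6 migrants (J. h. hyemalis), which winter at the same site in Virginia and breed farther north. All were free-living males caught in March and given no treatment, and the sources used here give no age or batch for them. Each library was made from polyadenylated RNA of tissue punched from the hypothalamus of 1 bird. Total counts ran from 4308064 to 5469786 read pairs in residents (median 5014150) and from 4319503 to 5826833 in migrants (median 4849133). Levels are CPM, read pairs scaled to a common library size with TMM factors, and they compare birds for 1 gene and not genes with each other, since element lengths were not used.

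Motile cilia beat by sliding of paired microtubules, driven by dynein arms and coordinated by radial spokes that reach from the microtubule doublets to the central pair. In the brain, ependymal cells lining the ventricles carry tufts of such cilia, which move cerebrospinal fluid, and the third ventricle runs through the hypothalamus. Nearly all other brain cells carry at most a single, immotile primary cilium, built and supplied by intraflagellar transport. Genes of the motile axoneme are therefore used as ependymal genes in brain tissue, although none of the named genes here defines that cell type. FOXJ1, the regulator that defines motile ciliated cells, was not among the named elements used here, so the ependymal source of the transcripts was not examined.

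Migrant replicate 1 and resident replicate 4 stood apart from the other libraries on the leading principal component (24.3% of the variance), with scores of 49.2 and 42.7 where the others lay between -21.5 and 2.32. They carry library numbers 1 and 14, the lowest and the highest. All numbers from 10 up belong to residents, and the sources used here do not give what the numbers stand for. NPVF and CRH, peptide precursors made in the hypothalamus, were measured in every library, at 207.6 to 877.0 CPM and at 5.26 to 26.7 CPM. DIO2, a thyroid hormone enzyme of the tanycytes that line the third ventricle, was at 11.4 to 65.9 CPM. CLDN2, a tight junction gene of the choroid plexus, was at 0 in 8 libraries and at most at 1.69 CPM. Haemoglobin transcripts, a sign of blood in the tissue, had lower estimates in residents (HBAA by -0.59 and HBAD by -0.53 in log2 fold change). Their unadjusted p in the edgeR test used below were 0.0376 and 0.0388, where 4.45% of all elements had one under 0.05. Neither passed after adjustment (0.996 for each). The summed level of 6 neuronal genes ran from 3297 to 5474 CPM in residents and from 3350 to 4749 CPM in migrants. That of 3 oligodendrocyte genes ran from 889 to 3121 CPM in residents and from 953 to 1926 CPM in migrants. S100B, an astrocyte gene, ran from 306 to 557 CPM in residents and from 197 to 922 CPM in migrants. In bulk tissue, fewer ciliated cells and less transcript per cell cannot be told apart.

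No cilia gene that could be tested differed between the populations past the threshold. Most estimates lay lower in residents, but most were also smaller in size than their standard error. The estimates of TEKT4 and TPPP3 changed sign when some birds were left out. Of the 8 genes named whatever their p, 0 passed an adjusted p of 0.05 in the quasi-likelihood test of edgeR, adjusted over 9938 elements, and 0% of all elements passed higher or lower in residents. Their adjusted p ran from 0.996 to 0.999. An unadjusted p under 0.05 was found for 1 of the 8, lower in residents, against 4.45% of all elements (2.3% higher and 2.14% lower). By DESeq2 0 of the 8 passed (lowest adjusted p 0.961), against 0.0302% of all elements, and 1 had an unadjusted p under 0.05, against 5.05%. By estimate 7 were lower and 1 was higher in residents, with a median log2 fold change of -0.13, against 0.00 over all elements. The populations overlapped in all 8, where 0.0906% of all elements had every resident above every migrant and 0.0402% every resident below. RSPH4A and C7H21orf58 were higher in residents, by 0.89 and 2.495 on the log2 scale, which is what placed them in the p-ordered rows.

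**Figure D1:**
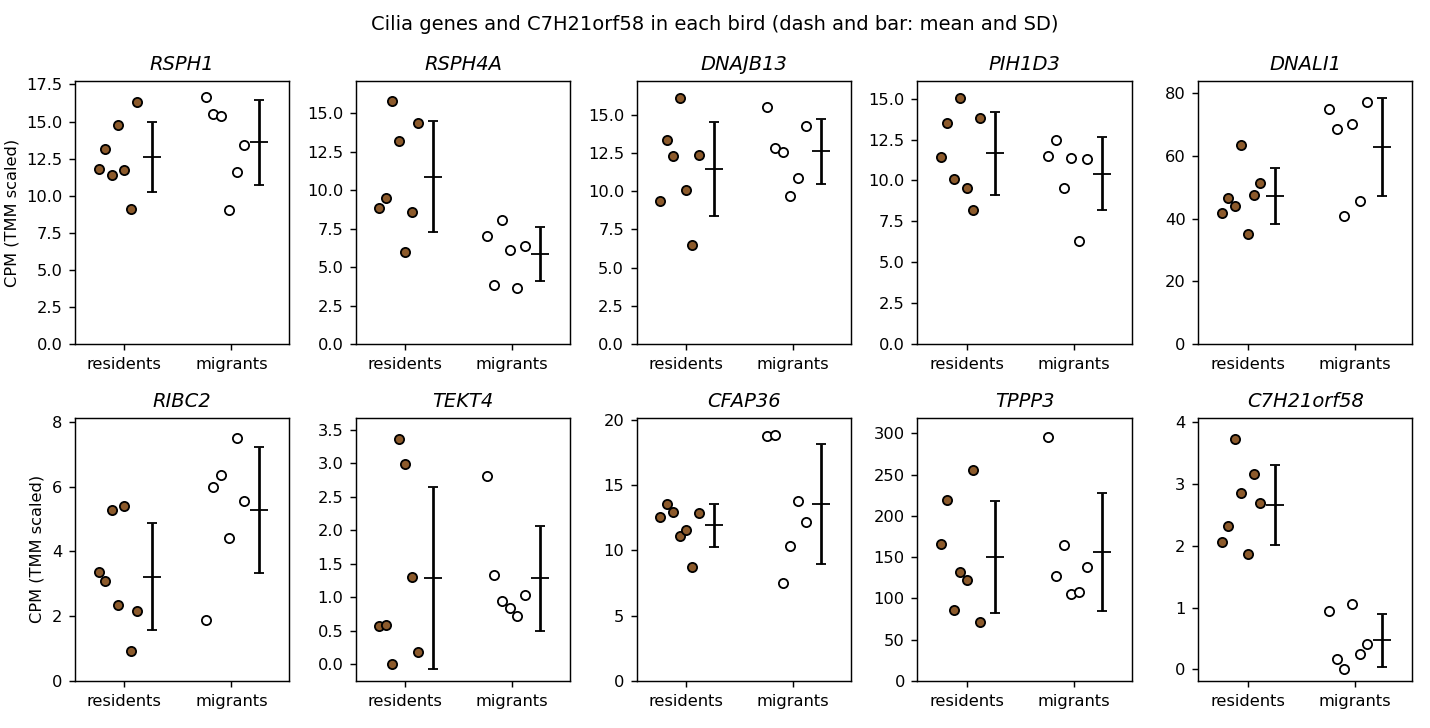
Level of each gene in each bird, in CPM with TMM factors on the vertical axis, which starts at or just below 0. Filled points are 7 residents and open points 6 migrants, and the dash and bar are the mean and SD. C7H21orf58 is the only one of the 10 genes in which every resident lies above every migrant, as in 0.0906% of all elements. RSPH4A follows with 6 of 7 residents above the highest migrant. Both came from the p-ordered rows, so nothing is read from this order.

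RSPH1 and RSPH4A encode proteins of the radial spoke head, and variants in either gene disturb ciliary beating in humans. RSPH1 ran from 9.10 to 16.3 CPM in residents (median 11.8) and from 9.05 to 16.7 CPM in migrants (median 14.4). Its lowest and highest birds were thus nearly the same in both populations, and the log2 fold change was -0.11 (standard error 0.18). RSPH4A ran from 5.97 to 15.8 CPM in residents (median 9.47) and from 3.62 to 8.05 CPM in migrants (median 6.25). Only resident replicate 5, at 5.97 CPM, lay below the highest migrant. Mean levels of RSPH4A were 10.9 ± 3.59 CPM (SD, n = 7) in residents and 5.84 ± 1.77 CPM (SD, n = 6) in migrants, a ratio of 1.86. Leaving out any 1 bird kept its log2 fold change between 0.77 and 1.01. Nothing is read from that range, since the same contrast chose RSPH4A.

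RSPH1 and RSPH4A are set side by side as a description only, since RSPH4A was chosen for its difference and RSPH1 was not. The ratio of RSPH4A to RSPH1 within a bird ran from 0.508 to 1.38 in residents (median 0.879) and from 0.247 to 0.674 in migrants (median 0.450), and 6 of 7 residents lay above the highest migrant. The ratio inherits the choice of RSPH4A for its difference and is given with no test. DNAJB13, a chaperone-related protein of the spoke neck, was at 6.50 to 16.1 CPM in residents (median 12.3) and at 9.69 to 15.5 CPM in migrants (median 12.7). Resident replicate 4 was highest and resident replicate 6 lowest, so residents spanned the migrants on both sides. The log2 fold change of DNAJB13 was -0.15 (standard error 0.20).

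PIH1D3 helps to assemble dynein arms in the cytoplasm before they enter the cilium, and DNALI1 is a light chain of the inner dynein arms. PIH1D3 ran from 8.17 to 15.0 CPM in residents (median 11.4) and from 6.28 to 12.5 CPM in migrants (median 11.4). It was the 1 gene of the 8 with a higher estimate in residents, at a log2 fold change of 0.15 (standard error 0.20). DNALI1 ran from 35.1 to 63.4 CPM in residents (median 46.6) and from 40.8 to 76.9 CPM in migrants (median 69.3). The migrants fell into high and low birds, with 4 at 68.5 CPM or more and replicates 3 and 5 at 40.8 and 45.6 CPM, within the range of the residents. DNALI1 averaged 47.1 ± 8.84 CPM (SD, n = 7) in residents and 62.8 ± 15.6 CPM (SD, n = 6) in migrants. Its log2 fold change of -0.42 (standard error 0.17) had an unadjusted p of 0.0212 in edgeR's test and did not pass after adjustment (0.996). Leaving out any 1 bird kept it between -0.51 and -0.36.

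RIBC2 and TEKT4 encode proteins that line the inside of the microtubule doublets. RIBC2 was at 0.929 to 5.41 CPM in residents (median 3.09) and at 1.88 to 7.48 CPM in migrants (median 5.78). All migrants but replicate 1 lay above 5 of the 7 residents. The log2 fold change of -0.71, with a standard error of 0.37, did not pass in edgeR's test (adjusted p = 0.996). TEKT4 rested on means of 6.14 counts per resident and 6.17 per migrant, at 0 to 3.37 CPM in residents (median 0.580) and 0.724 to 2.82 CPM in migrants (median 0.984). Resident replicate 3 had 0 counts, which allows up to 0.659 CPM at 3 counts, while resident replicates 4 and 5 had the highest levels of all birds. Its log2 fold change of -0.02 (standard error 0.63) turned positive without migrant replicate 1 (0.33) and without any 1 of resident replicates 1, 2, 3 and 7.

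CFAP36 binds the small GTPase ARL3 and serves cilia in general, and TPPP3 promotes the bundling of microtubules and is not confined to cilia. CFAP36 ran from 8.73 to 13.5 CPM in residents (median 12.6) and from 7.49 to 18.8 CPM in migrants (median 12.96), and every resident lay within the range of the migrants. TPPP3 ran from 71.1 to 255.9 CPM in residents (median 132.1) and from 105.3 to 295.3 CPM in migrants (median 132.5). Its coefficient of variation was 45.2% in residents, of which depth alone would give 3.62%, and 45.7% in migrants, of which depth alone would give 3.65%. Depth thus does not limit this gene, whose log2 fold change was -0.05 with a standard error of 0.28. Migrant replicate 1 was the highest bird, and without it the estimate turned to 0.22, as it did without resident replicate 3 (0.038) or 7 (0.066).

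C7H21orf58 (XP_012430496.1) is an uncharacterized homolog of human C21orf58. It was at 1.87 to 3.73 CPM in residents (median 2.69) and at 0 to 1.053 CPM in migrants (median 0.327). The lowest resident had 10 counts and the highest migrant 5, and all counts summed to 93 over the residents and 13 over the migrants. Migrant replicate 3 had 0 counts, which at 3 counts allows up to 0.562 CPM. The gene passed the filter of 5 counts in 6 libraries through the residents, since 7 residents and 1 migrant reached 5 counts. The means were 2.67 ± 0.650 CPM (SD, n = 7) in residents and 0.469 ± 0.431 CPM (SD, n = 6) in migrants, a ratio of 5.69 and a log2 fold change of 2.495 (standard error 0.49). It stayed between 2.23 and 2.91 when any 1 bird was left out. Nothing is read from its lack of overlap or from that range, since the same contrast chose the gene.

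**Figure D2:**
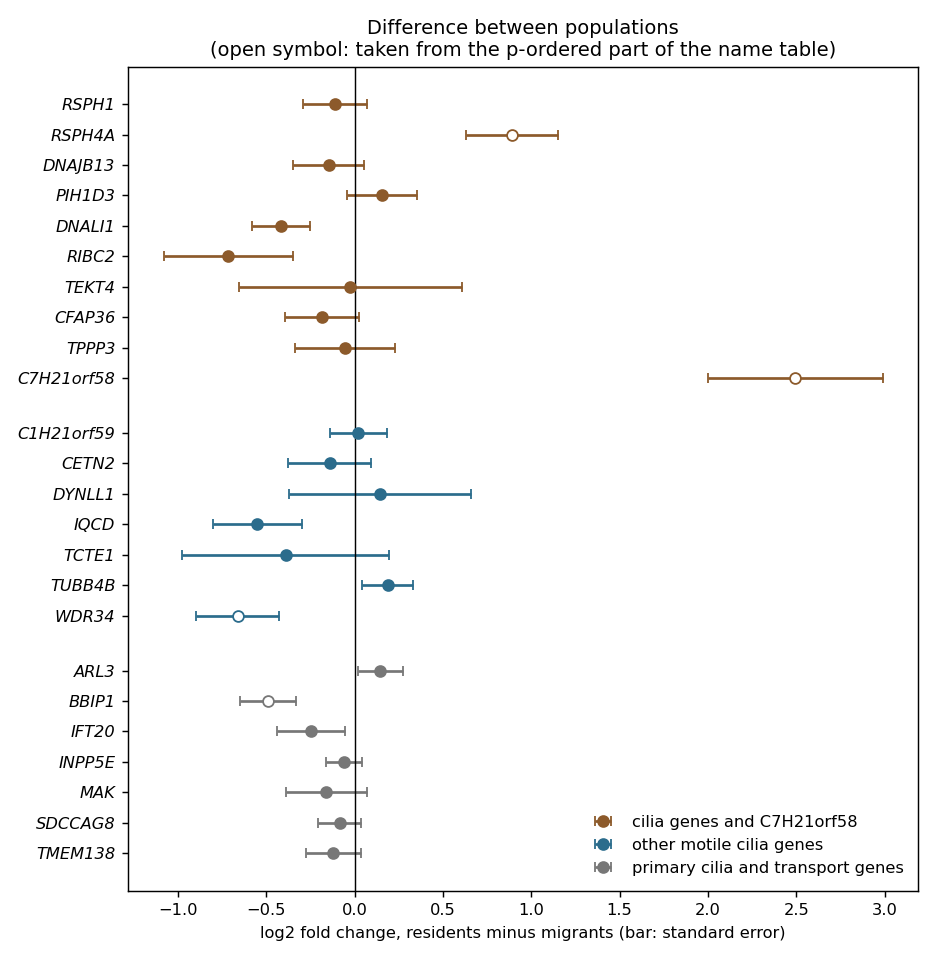
Log2 fold change of residents minus migrants on the horizontal axis, with its standard error as a bar. Shown are C7H21orf58, the 9 cilia genes, 7 other genes from a list for motile cilia and 7 genes of primary cilia and transport. Open symbols are genes taken from the p-ordered part of the name table. C7H21orf58 at 2.495 and RSPH4A at 0.89 lie to the right, and the 8 cilia genes named whatever their p lie between -0.71 and 0.15.

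A list of 103 other genes for motile cilia held some that are not confined to such cilia. Of its members 7 had a name, and 6 of these were named whatever their p. Of these 6, 0 passed an adjusted p of 0.05 in edgeR's test (0% of all elements), 1 had an unadjusted p under 0.05 (4.45% of all elements), 3 were higher and 3 lower by estimate, and the median log2 fold change was -0.06. IQCD, a part of the complex that links doublets and regulates dynein, had the unadjusted p of 0.0413, with 5.66 ± 1.67 CPM (SD, n = 7) in residents and 8.24 ± 2.45 CPM (SD, n = 6) in migrants (log2 fold change -0.55). TCTE1, another subunit of that complex, stood at -0.39 with a standard error of 0.59 on the log2 fold change scale. C1H21orf59, an assembly factor of dynein arms, had one of 0.02 (standard error 0.16). CETN2, a centrin of basal bodies, stood at -0.14 with a standard error of 0.23. TUBB4B, a tubulin of axonemes, and DYNLL1, a dynein light chain, had ones of 0.19 and 0.14, and both share sequence with close relatives, so reads may have been lost in unique counting. WDR34, a part of the dynein that moves cargo inside the cilium, came from the p-ordered rows, at 6.48 ± 2.11 CPM (SD, n = 7) in residents and 10.2 ± 2.23 CPM (SD, n = 6) in migrants. It lay opposite to RSPH4A and C7H21orf58, which like WDR34 were chosen for their difference.

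Of 35 genes of primary cilia and ciliary transport, 7 had a name and 6 were named whatever their p. Of these 6, 0 passed an adjusted p of 0.05 in edgeR's test (0% of all elements), 0 had an unadjusted p under 0.05 (4.45% of all elements), 1 was higher and 5 were lower in residents by estimate, and the median log2 fold change was -0.10. IFT20, an intraflagellar transport protein that carries membrane cargo from the Golgi, was at 108.1 ± 22.3 CPM (SD, n = 7) in residents and 128.4 ± 45.4 CPM (SD, n = 6) in migrants. ARL3, the GTPase bound by CFAP36, was the 1 gene with a higher estimate, at 0.15 (standard error 0.13). BBIP1, a subunit of the BBSome that carries membrane proteins in cilia, came from the p-ordered rows. It was at 21.8 ± 3.64 CPM (SD, n = 7) in residents and 30.7 ± 6.19 CPM (SD, n = 6) in migrants.

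Whether C7H21orf58 follows the cilia genes was then asked among birds of the same population, since its difference between populations was used to choose it. Levels on the log2(CPM + 1) scale were centred on each population mean, and the 13 birds were permuted within population. Of 9 relations, 0 passed after Benjamini-Hochberg adjustment, with r from -0.52 to 0.62, a median of 0.02 and 6 of 9 above 0. The median r of all other tested elements with C7H21orf58 was -0.02. Since the levels of C7H21orf58 fall into separate ranges in the populations, no pooled correlation is given. Centring does not even out the spread. Centred levels of C7H21orf58 ran from -0.34 to 0.39 in residents and from -0.50 to 0.53 in migrants, so migrants weigh more in each r over 13 birds. In migrants the gene rests on 0 to 5 counts, for which counting error alone gives a coefficient of variation of about 67.9% (91.9% observed), against 27.4% in residents (24.4% observed). In both populations the variation of C7H21orf58 among birds was thus of the size of counting error or not much above it, and a relation may not be detectable at this depth.

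**Figure D3:**
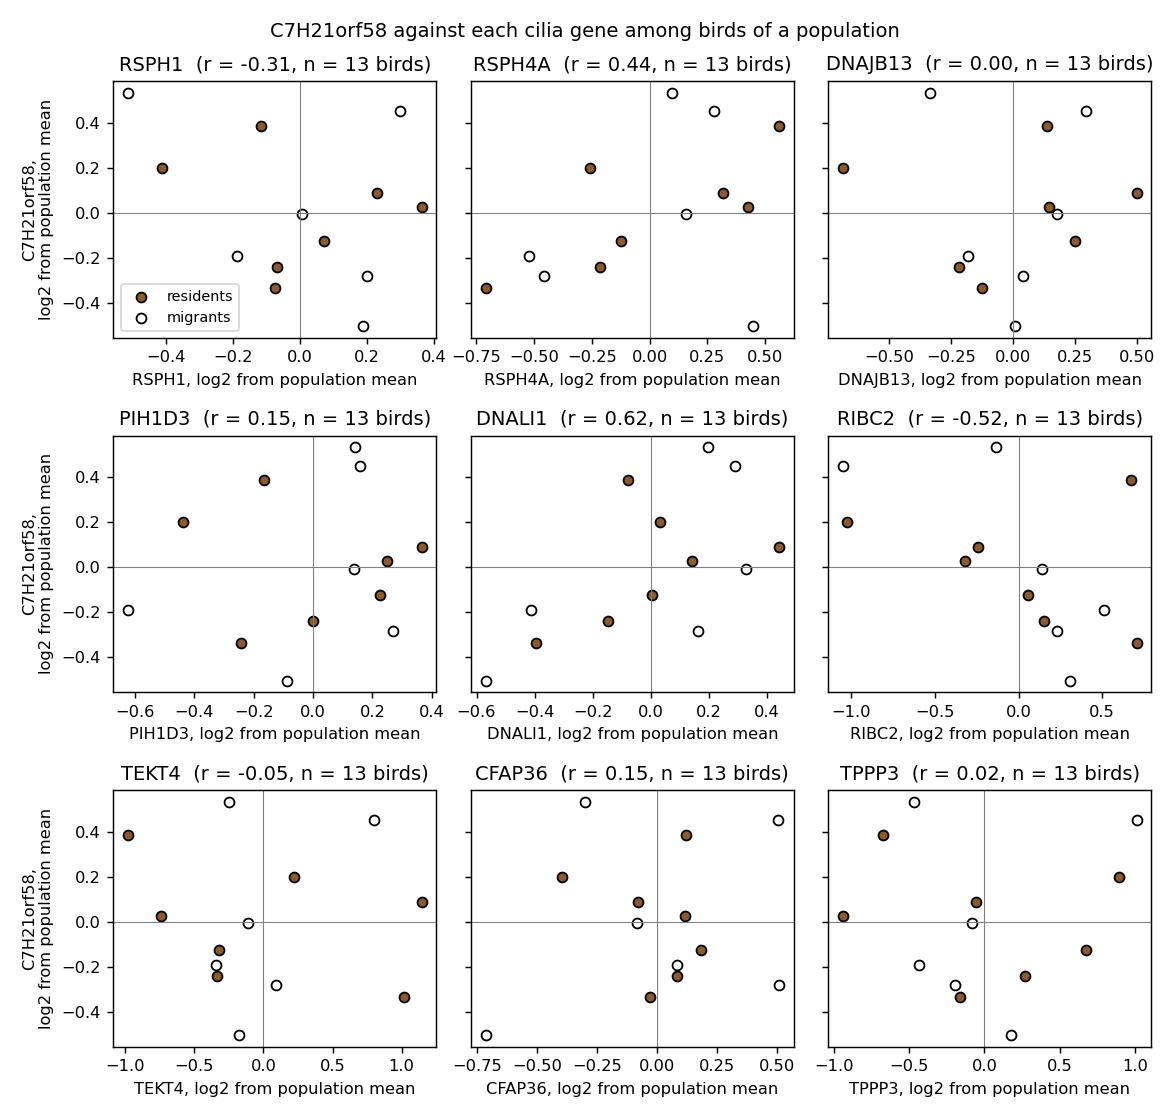
C7H21orf58 (vertical axis) against each of 9 cilia genes (horizontal axis), both as log2(CPM + 1) minus the mean of the bird's population. Each point is 1 of 13 birds, filled for residents and open for migrants. The points slope up for DNALI1 (r = 0.62), down for RIBC2 (r = -0.52) and show no slope for DNAJB13 (r = 0.00).

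DNALI1 came nearest to C7H21orf58, with r = 0.62 over 13 birds (permutation p = 0.0522, adjusted 0.327) and rho = 0.60 on ranks within population (permutation p = 0.0460, adjusted 0.310). The value was 0.59 without migrant replicates 6 and 1, the 2 birds farthest from the median of DNALI1 over all 13 birds. Here and below, the 2 farthest birds over both populations were picked before centring. They need not lie farthest on the centred scale, so such values cannot tell whether r rested on outlying birds. Within residents r was 0.48 (n = 7, exact permutation p = 0.275, adjusted over 18 relations 0.868) and rho 0.54. Within migrants r was 0.69 (n = 6, exact permutation p = 0.132, adjusted 0.792) and rho 0.71. Without the 2 farthest birds of each population these r were 0.15 in residents and 0.19 in migrants. That narrows the range of DNALI1 and leaves few birds, so it cannot decide what the relation rested on. Over both populations r was 0.59 without the 2 libraries that stood apart and 0.50 without TMM factors. Leaving out any 1 bird gave r from 0.46 to 0.70. The lowest value came without migrant replicate 3, which had the least DNALI1 of the migrants and no count of C7H21orf58. Of the other 9937 elements, 4.87% had a higher r with C7H21orf58 than DNALI1. The level of DNALI1 was lower in residents by estimate. That is not set against C7H21orf58, which was chosen for its difference.

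RIBC2 varied against C7H21orf58, with r = -0.52 (permutation p = 0.0727, adjusted 0.327) and rho = -0.56 (permutation p = 0.0689, adjusted 0.310). Without the 2 farthest birds, resident replicate 6 and migrant replicate 1, r was -0.29. Without migrant replicate 1 alone it was -0.36, and without resident replicate 6 alone it was -0.52. Without the 2 libraries that stood apart it was -0.35. It was -0.28 within residents (n = 7, exact permutation p = 0.544, adjusted 0.868) and -0.75 within migrants (n = 6, exact permutation p = 0.0597, adjusted 0.537). Without the 2 farthest birds of each population it turned to 0.47 in residents and was -0.99 in migrants, where 4 birds remain. Leaving out resident replicate 3 alone gave r = -0.77 and an adjusted permutation p of 0.0072, the 1 setting in which a relation passed. RSPH4A had r = 0.44 (permutation p = 0.143, adjusted 0.428) and rho = 0.34 (permutation p = 0.297, adjusted 0.823). Its r was 0.29 without migrant replicates 5 and 2, the 2 farthest birds before centring. It was 0.74 within residents (n = 7, exact permutation p = 0.0569, adjusted 0.537) and 0.22 within migrants (n = 6, exact permutation p = 0.671, adjusted 0.868). Without the 2 farthest birds of each population it was 0.26 in residents and turned to -0.75 in migrants. Few birds remain there, so neither the full nor the reduced values are relied on. Migrant replicate 3, with the most RSPH4A of the migrants and no count of C7H21orf58, ran against the relation. Without it r was 0.74 over 12 birds (adjusted permutation p = 0.0895), the highest value with 1 bird left out, where the lowest was 0.32. Over all 13 birds r was 0.29 with a pseudocount of 0.25, 0.34 with a prior count of 2 and 0.31 without TMM factors.

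RSPH1 had r = -0.31 (permutation p = 0.356, adjusted 0.802) and rho = -0.30 (permutation p = 0.366, adjusted 0.823). Its r turned to 0.20 without the 2 farthest birds, migrant replicate 4 and resident replicate 6. Without migrant replicate 4 alone r was 0.025, and without resident replicate 6 alone it was -0.24. Without the 2 libraries that stood apart it was -0.63, so its size depends on which birds enter. For DNAJB13, PIH1D3, TEKT4, CFAP36 and TPPP3, r lay between -0.05 and 0.15 and rho between -0.16 and 0.08, with an adjusted permutation p of 0.998 for r in each. Without the 2 farthest birds of each gene these r ran from -0.50 for TPPP3 to 0.21 for PIH1D3. Relative to the mean of the standardised levels of the 9 cilia genes, C7H21orf58 had r = 0.12, and 41.7% of the other 9929 elements had a higher one. For a mean without TPPP3 that r was 0.11, and for one of RSPH1, RSPH4A, DNAJB13, PIH1D3 and DNALI1 alone it was 0.23. Among the birds, resident replicate 6 had the lowest cilia mean and a C7H21orf58 level 0.20 above its population mean. Migrant replicate 4 had a cilia mean below its population and the highest C7H21orf58 level of the migrants, at 0.53 above their mean. Without migrant replicate 1 and resident replicate 4, which had the highest cilia mean of their populations, r with the cilia mean was -0.29.

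Among themselves the cilia genes varied together only in part. The median r over their 36 pairs was 0.15, against 0.00 over all pairs of tested elements, and 4 pairs exceeded 0.5. The share of all pairs of tested elements above 0.5 was not computed, so nothing is read from that count. These correlations are a description over 13 birds that share libraries and depth. RSPH1 and DNAJB13, of the spoke head and neck, had the highest, at r = 0.79, with 0.82 in residents and 0.87 in migrants, and 0.72 to 0.83 when any 1 bird was left out. PIH1D3 had r = 0.69 with DNALI1, 0.66 with DNAJB13 and 0.57 with RSPH1. With DNALI1 it was 0.64 in residents and 0.74 in migrants, but with DNAJB13 it was 0.86 in residents and 0.39 in migrants, and with RSPH1 0.91 in residents and 0.26 in migrants, a difference that was not tested. Without migrant replicate 1 and resident replicate 4 the r of PIH1D3 was 0.60 with DNALI1, 0.57 with DNAJB13 and 0.50 with RSPH1, and that of RSPH1 with DNAJB13 was 0.76. The median over the 36 pairs fell to -0.03 without them, so the 4 pairs did not stand for the whole list.

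RSPH4A, the other spoke head gene, had r = 0.35 with RSPH1 and 0.48 with DNAJB13. RIBC2 had its lowest r with TPPP3 (-0.58) and DNALI1 (-0.56), while its r was near 0 with RSPH1 (-0.07), CFAP36 (-0.04) and DNAJB13 (0.10). Without the 2 libraries that stood apart, the r of RIBC2 was -0.39 with TPPP3 and -0.50 with DNALI1, and 0.54 with DNAJB13, 0.34 with CFAP36 and 0.26 with RSPH1. Over all birds its r with the mean of the other 8 was -0.41. Relative to that mean, DNAJB13 had r = 0.83, with rank 13 among 9938 elements, PIH1D3 0.71 and RSPH1 0.66. The other genes had DNALI1 at 0.45, CFAP36 at 0.34, RSPH4A at 0.18, TEKT4 at 0.15 and TPPP3 at -0.08. The cilia mean itself had r = 0.67 with the first principal component, C7H21orf58 had 0.48 and RIBC2 -0.56, and the part of that component in these relations was not tested further than by leaving out its 2 libraries. With HBAA and HBAD the cilia mean had r = -0.01 and 0.06 over all birds, and -0.64 and -0.70 without those 2 libraries. The part of blood in the cilia levels was not tested.

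The genes with a name whose pattern among birds was most like that of C7H21orf58 were LOC100219971 (r = 0.87 over 13 birds), C4AHXorf56 (0.84), ACOT13 (0.84), MRPL19 (0.83) and SEC61B (0.82). Only 1219 elements had a name. Among all 9937 other elements these genes ranked 3, 7, 9, 13 and 19, so unnamed elements lay above and between them. ACOT13 is a mitochondrial thioesterase, MRPL19 a protein of the mitochondrial ribosome and SEC61B a subunit of the channel into the endoplasmic reticulum. Of the fixed ciliary lists, BBIP1 (r = 0.80, rank 26 of 9937) and IFT20 (r = 0.79, rank 39) were nearest to C7H21orf58, both of ciliary transport. Without the 2 libraries that stood apart, the r of each was 0.76. Both had a lower mean in residents, but BBIP1 and C7H21orf58 were themselves chosen for that contrast. These r and those of LOC100219971 to SEC61B are the highest of many. The variation of C7H21orf58 among birds was of the size of counting error or not much above it, so no link is read from them. The other 5 genes of primary cilia and transport had r from 0.16 for SDCCAG8 to 0.59 for MAK, a kinase of cilia. The 7 other motile cilia genes had r from -0.54 for TCTE1 to 0.31 for C1H21orf59 and 0.30 for CETN2. The named genes most like the cilia mean were PWWP2B (0.86), LRRC73 (0.83), TCEA2 (0.82), DYNC1I1 (0.80) and LOC100190204 (0.78), and without the 2 libraries that stood apart their r ran from 0.49 to 0.74. DYNC1I1 is a chain of cytoplasmic dynein, the motor of axonal transport. Of the other motile cilia genes named whatever their p, the median r with the cilia mean was 0.39, from -0.11 for TCTE1 and -0.08 for DYNLL1 to 0.53 for IQCD, against 0.01 over all elements. Without the 2 libraries that stood apart the 6 ran from -0.34 to 0.25, C1H21orf59 was at -0.34 (0.42 over all birds) and TUBB4B at 0.20 (0.41).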

How the data were processed

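Counts were deposited by the authors as whole read pairs per element, without normalization, in 1 file per bird. Per the methods, the authors trimmed paired reads of 43 nucleotides with Trimmomatic 0.33, aligned them to a draft junco genome (STAR 2.5.3a) and counted pairs that aligned once with featureCounts. Subread 2.0.0 and GSNAP also stand in the submitters' processing notes. Elements are homologous to zebra finch proteins. The sources used here do not give how counting treated strand. Genes that overlap on opposite strands, and near-identical genes, may share or lose reads.

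Names came from a shortened supplementary table, of which no values were used. Genes, lists and filter were chosen with earlier results of these data known, and the filter (5 counts in 6 libraries, which 9938 elements passed) partly so that C7H21orf58 would pass. The test was edgeR 4.0.16 in R 4.3.3 (TMM, quasi-likelihood, Benjamini-Hochberg at 0.05), with standard errors taken from F. Alternatives were DESeq2 1.42.0, other size factors and filters, the replicate number as a block and leaving out birds. Correlations used log2(CPM + 1), a pseudocount of 1, and 100000 permutations within population, or all pairings (exact) inside 1 population. The text names the 10 genes, list members with a name (the list counts leave out an item that is not reported here) and the 5 named genes most like each pattern. The steps were run on simulated data, but no result of those runs is given, so nothing is read from them. Detection of a difference or a relation at counts as low as those of TEKT4 and C7H21orf58 was not tested. Limits given for a count of 0 cover counting error only. No genome was used, so no coordinates or sequences are given.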

Additional observations from a re-analysis of the deposited data

Results flagged for a closer look

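Of 22 groups examined (10 genes and the cilia mean in each population), 2 held a bird far from the others, where chance gives about 1 in 20. Both were migrant replicate 1, which also stood apart on the first principal component. It was the highest migrant for TEKT4, at 2.82 CPM, with a gap to the next bird of 0.709 of the range of the group. It was also the highest migrant for TPPP3, at 295.3 CPM, with a gap of 0.687 of the range.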

How the results depend on the processing

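The count of elements called was 0 under 19 of 20 alternatives and 3 with DESeq2, and that of the 8 cilia genes named whatever their p was 0 in all 20. The number of elements tested was 9410 under edgeR's own filter and 11454 with no filter, in place of 9938. Where birds were left out, the filter was applied anew. Over those alternatives the log2 fold change stayed between 2.23 and 2.91 for C7H21orf58 and 0.77 and 1.01 for RSPH4A. Nothing is read from these ranges, since the same contrast chose both genes. For DNALI1 it stayed between -0.51 and -0.36 and for RIBC2 between -0.89 and -0.55. The log2 fold changes of TEKT4 and TPPP3 turned sign. Leaving out 1 bird gave -0.43 to 0.33 for TEKT4 and -0.24 to 0.22 for TPPP3. Leaving out migrant replicate 1 with resident replicate 4 gave 0.25 for TPPP3. TEKT4 has no value there or under edgeR's own filter, which it did not pass. With the replicate number as a block, which needs birds 1 to 6 of each population, 0 elements were called and TPPP3 was at 0.077. The same birds without the block, a setting added after seeing the data, gave 0.066 for TPPP3 and 0.18 for TEKT4. That setting repeats the fit without resident replicate 7, so it is not a separate fit among the 20. Birds of the same number did not deviate together (r from -0.23 to 0.06), so the numbers do not pair them. The count of cilia genes correlated with C7H21orf58 was 0 to 1 when 1 bird was left out, with the 1 being RIBC2 without resident replicate 3 (r from -0.77 to -0.36 over the birds left out), and 0 otherwise. The r of RSPH1 ran from -0.55 to 0.025, of DNAJB13 from -0.15 to 0.23, of TEKT4 from -0.25 to 0.17, of CFAP36 from -0.27 to 0.37 and of TPPP3 from -0.30 to 0.19 over the birds left out. For DNAJB13 r was -0.0026 with a pseudocount of 0.25 and -0.0022 with a prior count of 2. Without TMM factors r was -0.22 for DNAJB13, -0.018 for PIH1D3 and -0.12 for TPPP3, and on ranks it was -0.033 for CFAP36 and -0.12 for TPPP3. Without the 2 libraries it was -0.63 for RSPH1 and -0.40 for TEKT4, where all birds gave -0.31 and -0.05, and -0.26 for DNAJB13, -0.081 for CFAP36 and -0.30 for TPPP3, the r of C7H21orf58 with the cilia mean was -0.29 (-0.16 to 0.32 without 1 bird) and the median over cilia pairs -0.026 (0.05 to 0.25 without 1 bird). Within residents alone r was -0.13 for PIH1D3, -0.23 for CFAP36 and -0.20 for TPPP3, and within migrants alone -0.057 for DNAJB13 and 0.41 for TEKT4. The cause of these shifts was not tested. Depth limits C7H21orf58 and TEKT4 most.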
